A study of Saccharomyces cerevisiae with 9 samples.

Results

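Transfer RNAs carry amino acids to the ribosome. Each tRNA is charged at its 3' CCA end by the aminoacyl-tRNA synthetase of its amino acid, and tRNAs that read different codons of one amino acid, called isoacceptors, are charged by the same enzyme. An uncharged tRNA cannot deliver an amino acid, so the share of each tRNA that is charged is a measure of its supply for translation. The order of the charged-to-total ratio over the tRNA probes was examined in wild-type budding yeast, on the 3 wild-type charging arrays among the 9 arrays of the series.

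The arrays were chosen by their labels as control strain charging arrays. For comparison there were 3 charging arrays of Not1 depleted cells. The Not1 depleted strain MY13523 carries the degron allele not1::NOT1-AID-Myc6-NATMX4, by which auxin triggers loss of Not1, a subunit of the Ccr4-Not complex. The wild-type strain MY13472 lacks this allele. Both are MATa strains with ura3-1::pADH1-OsTIR1-URA3, so that the OsTIR1 auxin receptor was made from the ADH1 promoter in the wild-type as well, and both also have a mutant leu2 gene, HIS3,15, ADE2, trp1-1 and can1-100. These genotypes are those of the labels. The methods and strain list of the study differ from them, with MATα, his3,15 and ade2 for MY13472 and another number and tag for the Not1 degron strain. By the labels, control cells too received auxin, at 1 mM over 15 min, whereas the methods give them the solvent ethanol instead. Each replicate was grown independently in rich medium with glucose.

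On a charging array, one aliquot of an RNA sample was oxidized with periodate, which spares only charged tRNAs at their 3' ends, and was labelled with Cy3. The other aliquot held the total tRNA and was labelled with an Atto dye. The ratio of Cy3 to Atto was taken on the log2 scale and set against the median tRNA probe of the same array, so that 0 is the median probe and -1 is a ratio 2-fold below it. These values are therefore an order and not percentages of charged tRNA. The 64 tRNA probes cover 20 amino acids, and 24 of the probes have a prefix m in their name. The labels do not explain this prefix, but the number of such probes equalled the number of mitochondrial tRNA genes in the yeast annotation for 20 of 20 amino acids. The number of the other probes equalled that of resolved nuclear anticodons for 14 of 20 amino acids. Anticodons were resolved for 273 of 275 nuclear genes, among them 20 of 21 for leucine and 18 of 19 for serine. Glutamate and glutamine have 2 nuclear anticodons and 1 probe each. Because dyes and probes can differ in efficiency from tRNA to tRNA, the order of the ratio need not be the order of the charged share. The 4 spiked tRNA standards, added in equal amounts, spanned 1.77, 3.68 and 2.09 log2 units in this ratio on wild-type arrays 1, 2 and 3. Their median Atto signals above background were 3.5, 0 and 0 units for EcTyr2, 1, 2 and 22.5 for His1h, 84.5, 14.5 and 137.5 for EcLys2, and 1003, 591.5 and 283 for Ser3h. Only Ser3h was clearly lit on each array, so that these spans do not measure the efficiency of probes, and the order was centred on the tRNA probes.

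The tRNA sequences at both ends of the order and between them are shown for the amino acids read by 1 anticodon in the nuclear genome, other than methionine, which has an initiator and an elongator tRNA. Each is the spliced gene sequence of the RefSeq annotation on build R64, 5' to 3', without the CCA end, with the anticodon in capitals. They are given from the lowest to the highest ratio.
tRNA-Tyr, SUP11, chrVI:167437-167525, plus strand: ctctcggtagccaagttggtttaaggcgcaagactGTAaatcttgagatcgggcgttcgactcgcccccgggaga
tRNA-Cys, YNCB0017C, chrII:643007-643078, minus strand: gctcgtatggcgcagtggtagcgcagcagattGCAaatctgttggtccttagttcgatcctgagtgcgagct
tRNA-Asp, YNCB0016W, chrII:405960-406031, plus strand: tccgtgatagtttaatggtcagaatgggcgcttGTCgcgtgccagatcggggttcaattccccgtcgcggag
tRNA-His, YNCE0013W, chrV:207357-207428, plus strand: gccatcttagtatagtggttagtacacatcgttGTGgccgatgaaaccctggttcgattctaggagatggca
tRNA-Asn, YNCC0005W, chrIII:127716-127789, plus strand: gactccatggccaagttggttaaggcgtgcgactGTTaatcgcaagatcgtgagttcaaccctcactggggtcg
tRNA-Phe, YNCB0002W, chrII:36398-36488, plus strand: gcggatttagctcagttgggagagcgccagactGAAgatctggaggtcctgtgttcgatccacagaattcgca
tRNA-Trp, YNCG0009C, chrVII:287350-287455, minus strand: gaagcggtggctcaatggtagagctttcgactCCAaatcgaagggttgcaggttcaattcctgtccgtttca
All 8 tRNA-Tyr genes and all 6 tRNA-Trp genes have the sequence shown. The last base, to which the CCA end is joined, is A in the lowest of these tRNAs, tRNA-Tyr, and also in the 2 highest, tRNA-Phe and tRNA-Trp. The GC content was 56%, 54.2%, 56.9% and 47.2% for the 4 lowest of these tRNAs, of tyrosine, cysteine, aspartate and histidine, 54.1% for tRNA-Asn, 53.4% for tRNA-Phe and 50% for tRNA-Trp. Among the tRNAs shown, which leave out glutamate, the lowest amino acid, the last base did not separate the low from the high end. In GC content tRNA-His lay below the 2 highest while the other low ones lay above them. Neither feature was tested over all amino acids. The files do not pair probe names with anticodons, so the other probes are given by name alone.

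Before the order itself, the arrays were compared with each other. Over 64 probes, the Spearman correlation of the ratio was 0.80 between wild-type arrays 1 and 2, 0.78 between 1 and 3 and 0.69 between 2 and 3. Kendall's coefficient of concordance was 0.84 over the 3 arrays. The 20 amino acids followed each other more closely, with correlations of 0.88, 0.92 and 0.90 and a concordance of 0.93. Wild-type array 2 correlated at 0.92 with Not1 depleted array 1, above its correlations with both other wild-type arrays. Across the strains the 9 pairs ran from 0.58 to 0.92. Wild-type array 1 had the highest share of lit water spots, 35.2%, against 0% on array 2 and 6.48% on array 3. These correlations are over probes, which are not independent replicates, and are given as a description.

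**Figure D1:**
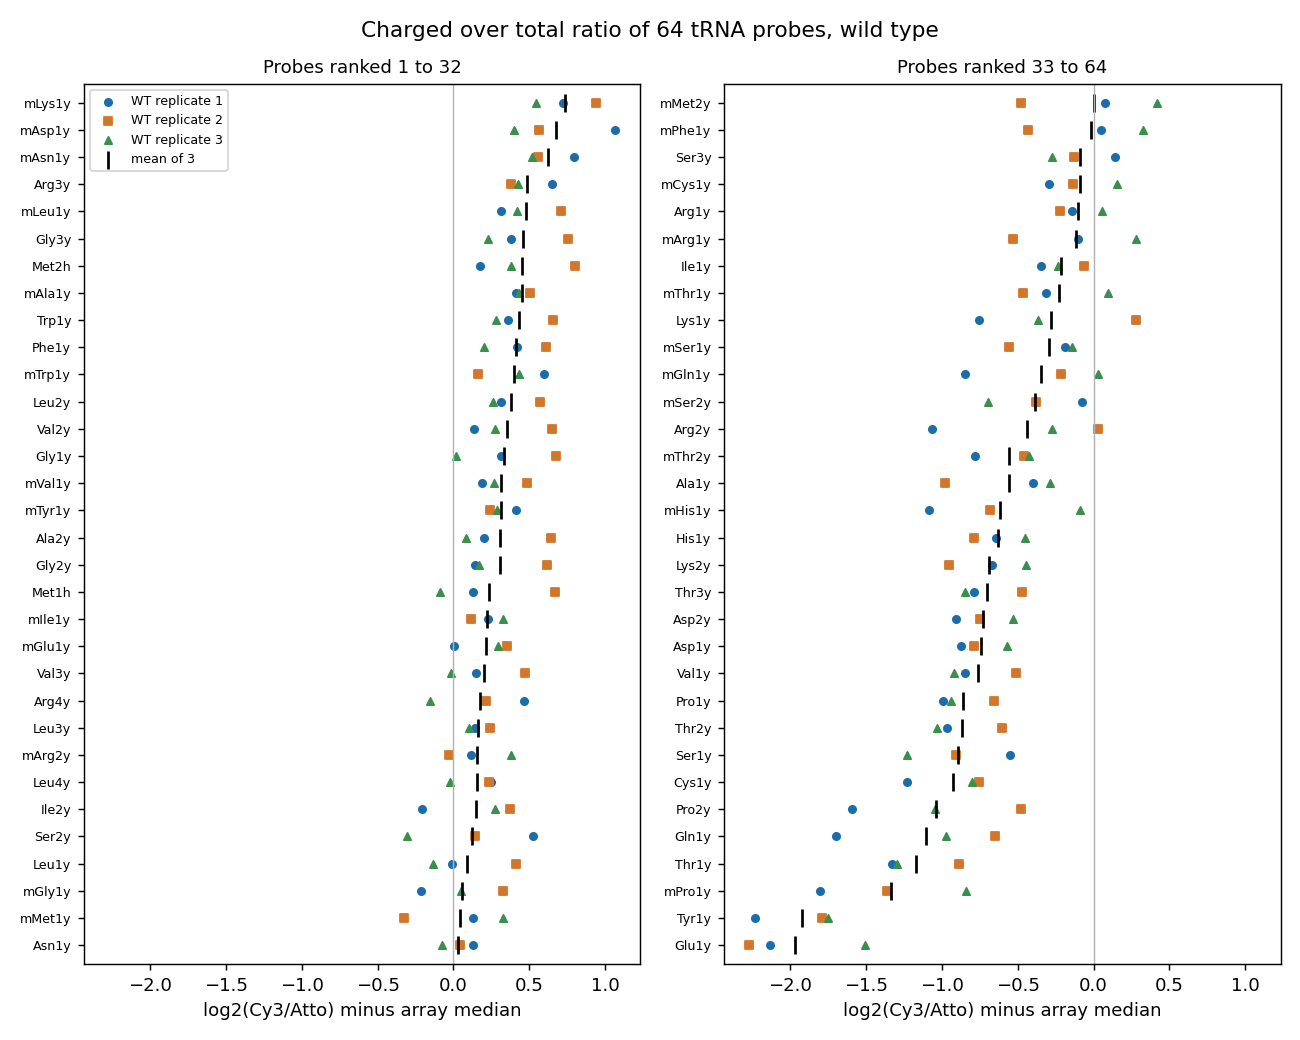
Charged over total ratio of 64 tRNA probes on 3 wild-type arrays. The horizontal axis is log2(Cy3/Atto) minus the array median, probes run from the highest mean (top left) to the lowest (bottom right), symbols are single arrays and the black tick is their mean. The means run from 0.73 for mLys1y to -1.97 for Glu1y, and the low end stretches further from 0 than the high end.

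The order was lopsided. The probe means spanned 2.70 log2 units, a 6.51-fold range, most of it below the median. Of 64 probes, 20 lay below the median probe (31.2% of those tested, adjusted p below 0.05) and 11 lay above it (17.2%), and for 33 no difference was called. Without adjustment the counts were 22 and 13. The median SD of a probe over the 3 arrays was 0.25 and the SD of the 64 means was 0.61, so that the order was wider than the spread between arrays. limma gave all probes 1 variance, with a standard error of 0.17 for each mean. Its p-values therefore do not reflect how far a single probe varied over the arrays.

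Glu1y and Tyr1y, for glutamate and tyrosine tRNAs, were the lowest. Glu1y had -2.13, -2.27 and -1.50 on wild-type arrays 1, 2 and 3, a mean of -1.97 ± 0.41 (SD, n = 3) and 25.6% of the ratio of the median probe. Tyr1y had -2.23, -1.79 and -1.75, a mean of -1.92 ± 0.27 (SD, n = 3) and 26.4% of the median. Both held the last 2 of 64 places on arrays 1 and 3. On array 2 they did so as well, so that no other probe came below them on any array. The limma adjusted p was 1.5e-19 for Glu1y and 3.4e-19 for Tyr1y, under the single variance for all probes. With plain subtraction of the background the limma adjusted p was 0.00027 and 6.9e-05. Both stayed below the median under all alternatives, but their place did not. With a loess fit within each array, which removes a trend of the ratio over intensity, Glu1y came to -1.06 and place 62 and Tyr1y to -0.71 and place 51, and Thr1y (-1.17) and Ser1y (-1.07) were then the lowest. The fit included the spots of Glu1y and Tyr1y, the brightest in Atto on each array. It therefore cannot separate their own low ratio from the trend. Tyr1y came to -0.86 with the names as deposited.

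The next probe, mPro1y, was named for a proline tRNA with the prefix m. It had -1.80, -1.36 and -0.84, a mean of -1.34 ± 0.48 (SD, n = 3), and ranked at place 62 on arrays 1 and 2 but at place 54 on array 3. Thr1y, a threonine probe, was steadier. Its values were -1.33, -0.89 and -1.30, with a mean of -1.17 ± 0.24 (SD, n = 3). With the names as deposited, however, it came to -0.071 and was not called (limma adjusted p 0.74).

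Gln1y and Pro2y, for glutamine and proline tRNAs, depended on the array. Gln1y had -1.70, -0.65 and -0.97, a mean of -1.11 ± 0.54 (SD, n = 3). Pro2y had -1.59, -0.48 and -1.04, a mean of -1.04 ± 0.56 (SD, n = 3). In both, array 1 was the lowest and array 2 the nearest to the median, with all arrays below 0. With the names as deposited, Pro2y came to 0.27 and was not called.

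Cys1y, Ser1y, Thr2y and Pro1y closed the list of the 10 lowest. Cys1y, for the cysteine tRNA, had -1.23, -0.75 and -0.80. Ser1y, a serine probe, had -0.55, -0.90 and -1.23, the widest range of these, although with the names as deposited it came to -0.0024. The values of Thr2y were -0.97, -0.61 and -1.03. Those of Pro1y were -0.99, -0.66 and -0.94. All 10 probes lay below the median on every wild-type array, with limma adjusted p from 1.5e-19 to 1.1e-05. The other 10 probes called below the median ranged from -0.44 (Arg2y) to -0.76 (Val1y). Both of these turned in an alternative. Arg2y came to 0.23 with loess and was not called. Val1y came to 0.52 with the names as deposited and was called above (limma adjusted p 0.0057). Of the 10 lowest, 3 were among the last 10 places on all 3 arrays.

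The high end was flatter, and 5 of its 10 probes had the prefix m. The highest, mLys1y, had 0.72, 0.94 and 0.54 on arrays 1, 2 and 3, a mean of 0.73 ± 0.20 (SD, n = 3) or 166.3% of the median probe, and it was the only probe among the first 10 places on all 3 arrays. With plain subtraction of the background it took place 5, and only 3 of the 10 highest probes stayed among the 10 highest, while 10 of the 10 lowest did. mAsp1y had 1.06, 0.56 and 0.40, so that array 1 was the highest. mAsn1y had 0.79, 0.56 and 0.52, also highest on array 1. Their limma adjusted p were 0.00019, 0.00052 and 0.0014.

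The 2 other m probes among the 10 highest were mLeu1y and mAla1y. mLeu1y had 0.31, 0.71 and 0.42, with array 2 the highest. mAla1y had 0.41, 0.51 and 0.43, and its SD of 0.049 was the smallest of all probes.

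Among probes without the prefix, Arg3y led with 0.65, 0.38 and 0.42. Gly3y had 0.38, 0.76 and 0.23, and Met2h had 0.18, 0.80 and 0.38. Array 2 was the highest for both of these glycine and methionine probes. Labels do not explain the suffix h of Met2h and Met1h, the only methionine probes without the prefix. The standards His1h and Ser3h bear it too. Trp1y, for the only nuclear tryptophan tRNA, had 0.36, 0.66 and 0.28. Phe1y, for the phenylalanine tRNA, had 0.42, 0.61 and 0.20. In these 5 probes every array lay above 0, and their limma adjusted p ran from 0.016 to 0.039. None of these 5 calls was kept with plain subtraction of the background, where their means ran from 0.24 to 0.33. With the names as deposited Met2h came to -0.79.

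The ranks in the middle were loose. The median probe moved over 15 places between its highest and lowest rank, and the largest movement was 40 places. Of the 10 highest probes by mean, the lowest place on a single array was 23, and of the 10 lowest the highest was 44. The spread was largest in Arg2y, an arginine probe, with -1.06, 0.03 and -0.28 (SD 0.56). This probe was called below the median although array 2 lay above it. Spots of one probe on one array had a median SD of 0.18, below the 0.25 between arrays.

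**Figure D2:**
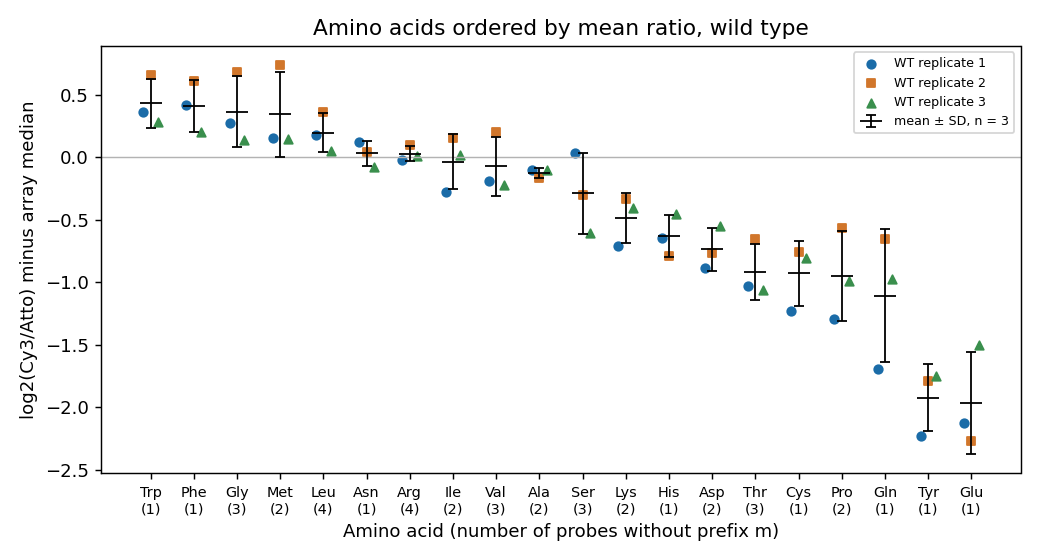
Amino acids ordered by the mean ratio of their probes without the prefix m. The vertical axis is log2(Cy3/Atto) minus the array median, symbols are the 3 wild-type arrays, and the bar is the mean ± SD. Tyr and Glu stand at -1.92 and -1.97, apart from the slope that runs from 0.43 (Trp) to -1.11 (Gln).

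Averaged over the 40 probes without the prefix m, 9 of the 20 amino acids lay below the median probe (45%) and 4 above it (20%) at a limma adjusted p of 0.05, and the same counts were found without adjustment. limma again gave 1 variance, with a standard error of 0.15 for each amino acid. Glutamate and tyrosine were the last 2 on all 3 arrays. Each has 1 probe, so their values are those given above. Glutamine, also with 1 probe, followed, and the step of 0.82 ± 0.30 (SD of the step, n = 3) from tyrosine up to glutamine was the largest of the 19 steps in the order. This step turned round in 2 alternatives. With loess tyrosine came to -0.71 and glutamine to -0.86, and with the names as deposited to -0.86 and -0.99. Glutamate was the lowest amino acid in both, while tyrosine took place 15 and place 17.

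Proline, the fourth lowest, had -1.29, -0.57 and -0.99 as the mean of 2 probes, with array 1 the lowest. Cysteine, threonine, aspartate, histidine and lysine were the others below the median, with means of -0.93, -0.92, -0.74, -0.63 and -0.48. With loess aspartate came to -0.015 and was no longer called (limma adjusted p 0.90), and with the names as deposited threonine came to -0.28 and was not called (limma adjusted p 0.052). At the other end tryptophan, phenylalanine, glycine, methionine and leucine took the first 5 places on all 3 arrays, in a different sequence on each. Glycine had 0.28, 0.68 and 0.14 over 3 probes, and methionine 0.15, 0.74 and 0.15 over 2, both with the unexplained suffix h. Leucine, with a mean of 0.20 ± 0.16 (SD, n = 3), was not called. This set of 5 did not hold in 2 alternatives. Leucine took place 6 with loess, and methionine place 15 (-0.80) with the names as deposited.

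Between these ends lay asparagine, arginine, isoleucine, valine, alanine and serine, with means of 0.03, 0.03, -0.03, -0.07, -0.12 and -0.29, none of them called. Serine had 0.04, -0.30 and -0.60 and was the least steady of these, while alanine had an SD of only 0.038 although its 2 probes lay on different sides of the median. Arginine came to 0.36 and place 1 with loess and was called above (limma adjusted p 0.0063). Valine came to 0.31 and place 3 with the names as deposited and was called above (limma adjusted p 0.025). Serine was called below in both settings, with -0.40 in each.

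The order between neighbours was mostly unresolved. Only 2 of the 19 steps went the same way on all 3 arrays and were larger than their SD, those from leucine to asparagine (0.17 ± 0.14) and from glutamine to tyrosine. The calls at both ends depended on array and setting. Without wild-type replicate 2 no amino acid was called above, and below the median 1 was called instead of 9. Without replicate 1 or replicate 3 there were 2 above. With plain subtraction none of the 4 amino acids above the median was called.

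The amino acids were also described by the group of their synthetase and by their chemistry. Class I and class II synthetases are unrelated enzyme families, which as a rule load the amino acid on different hydroxyls of the terminal adenosine. Of 20 probes for class I amino acids 3 were above and 6 below the median, with a median of 0.15. Of 20 probes for class II amino acids 2 were above and 11 below, with a median of -0.59. Over all 40 probes 5 were above and 17 below, with a median of -0.10.

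Of the 5 probes for acidic amino acids and their amides 4 were below the median and none above, with a median of -0.74, and the exception was asparagine. Both aspartate probes in this count came near 0 with loess, with -0.07 for Asp1y and 0.04 for Asp2y. Of the 6 serine and threonine probes 4 were below and none above, with a median of -0.79. The 9 probes for the branched amino acids isoleucine, leucine and valine had 1 below and none above, with a median of 0.15. The 7 leucine and serine probes, whose tRNAs have a long variable arm, had 1 below and none above, with a median of 0.12.

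The aromatic amino acids were split, with phenylalanine and tryptophan at the top and tyrosine near the bottom, although at place 15 of 20 with loess. Among the 3 probes for cysteine and methionine 1 was above and 1 below. The 7 probes for arginine, histidine and lysine had 1 above and 3 below, and the 7 for alanine, glycine and proline likewise had 1 above and 3 below. Over the 20 amino acids, the number of nuclear tRNA genes had a Spearman correlation of 0.14 with the mean ratio. This is a description over amino acids that share arrays.

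**Figure D3:**
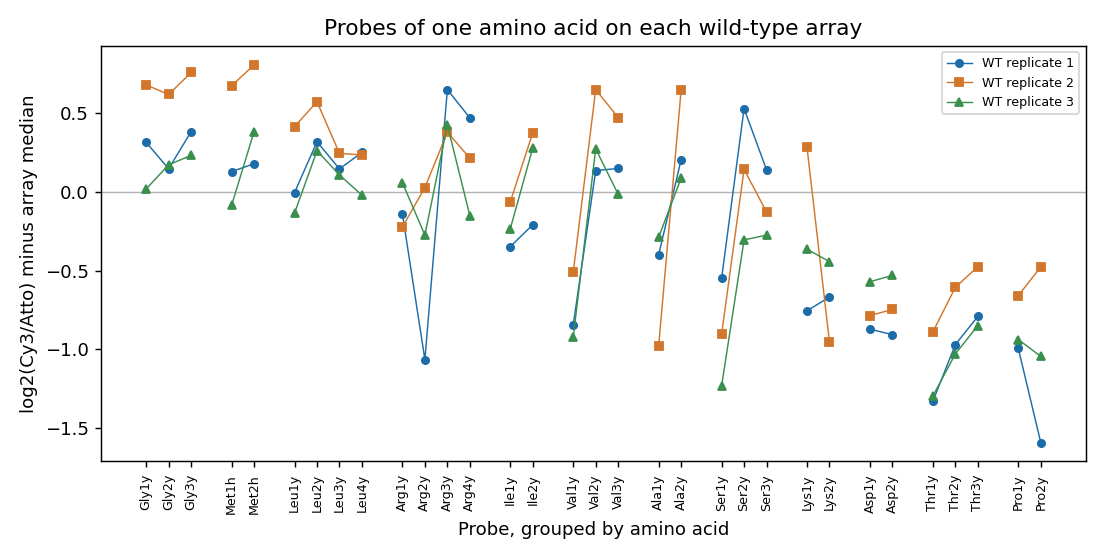
Probes of the 12 amino acids with more than 1 probe without the prefix m. The vertical axis is log2(Cy3/Atto) minus the array median, and lines join the probes of one amino acid on one wild-type array. Val1y lies below Val2y and Val3y, and Ser1y below Ser2y and Ser3y, on each of the 3 arrays.

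Isoacceptors share their synthetase, so their ratios were compared within each array. Of 30 pairs in 12 amino acids, 6 differed (20%, limma adjusted p below 0.05), in serine, valine, threonine and arginine, and 11 passed without adjustment. Pairs of one amino acid share probes and are not independent. Aspartate and methionine have 1 nuclear anticodon each, so their pairs among the 30 are not pairs of isoacceptors.

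Val1y minus Val2y was -0.98, -1.16 and -1.19 on arrays 1, 2 and 3, a mean of -1.11 ± 0.12 (SD, n = 3, limma adjusted p 0.0017). The Val2y ratio was thus 2.16-fold that of Val1y on the same arrays. Ser1y minus Ser2y was -1.08, -1.05 and -0.93, a mean of -1.02 ± 0.079 (SD, n = 3, limma adjusted p 0.0017). Ser2y itself varied, with 0.53, 0.14 and -0.31 relative to the median, so that the difference within serine was steadier than either level. Val1y also lay below Val3y by a mean difference of -0.96, and Ser1y below Ser3y by -0.81.

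Smaller differences were called in arginine and threonine. Arg1y minus Arg3y was -0.79, -0.60 and -0.37, a mean of -0.58 ± 0.21 (SD, n = 3, limma adjusted p 0.030). Thr1y minus Thr3y was -0.54, -0.41 and -0.45, a mean of -0.47 ± 0.064 (SD, n = 3, limma adjusted p 0.018). Neither of these was called when any 1 wild-type array was left out, while Val1y minus Val2y, Val1y minus Val3y and Ser1y minus Ser2y were called each time. Ser1y minus Ser3y was not called without replicate 2 (limma adjusted p 0.052). With loess Arg1y minus Arg3y came to -0.12 (limma adjusted p 0.56) and Thr1y minus Thr3y to -0.31 (limma adjusted p 0.073). Thr1y minus Thr3y came to -0.067 with the names as deposited and was not called. The serine and valine pairs rest on the moved spot names. With the names as deposited Ser1y minus Ser2y came to 0.23 and Val1y minus Val2y to 0.15, neither of them called.

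Some wide differences were not called because the arrays disagreed. Ala1y minus Ala2y was -0.60, -1.62 and -0.37, with array 2 far below the others (limma adjusted p 0.097). Aspartate, with 1 nuclear anticodon, and glycine showed narrow spreads, with 0.015 between the means of 2 probes and 0.15 between the highest and lowest of 3. Leucine, with 4 probes, spanned 0.29.

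**Figure D4:**
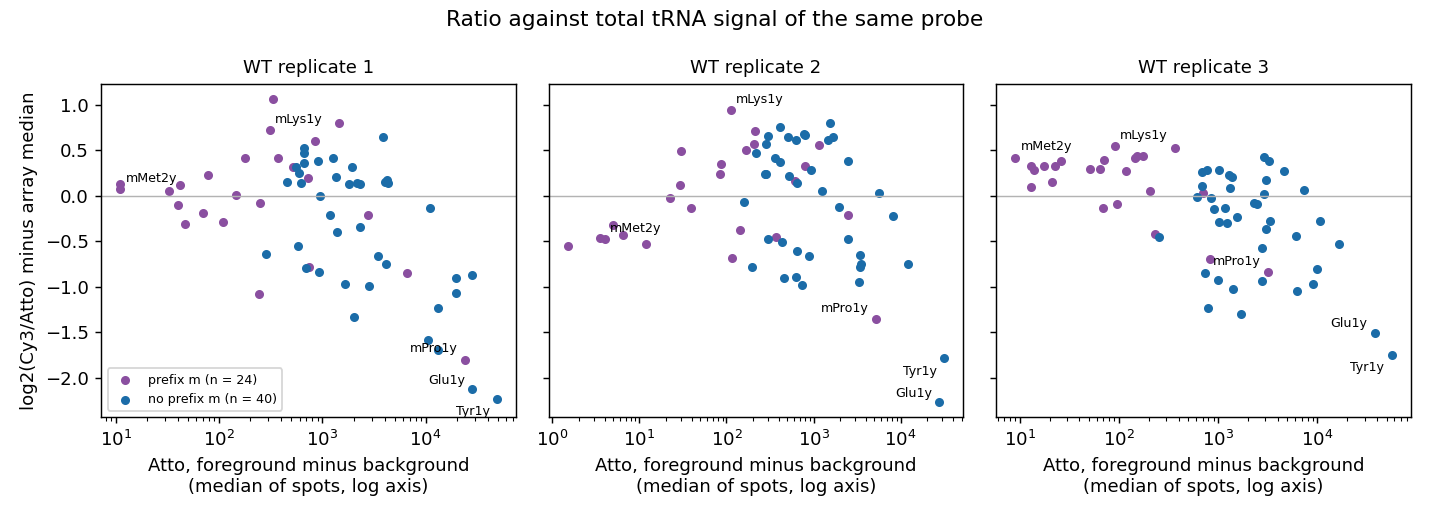
Ratio against the total tRNA signal of the same probe on each wild-type array. The vertical axis is log2(Cy3/Atto) minus the array median and the horizontal log axis is the Atto signal above background, in scanner units. Glu1y and Tyr1y are the brightest in Atto on each array, and the dimmest points are probes with the prefix m.

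The ratio moved with the brightness of the total tRNA signal, which is one of its own terms. Its Spearman correlation with the Atto signal over 64 probes was -0.43, -0.19 and -0.58 on arrays 1, 2 and 3, and over the 40 probes without the prefix it was -0.55, -0.34 and -0.26. With plain subtraction it was -0.65, -0.64 and -0.73 over 64 probes, and with loess -0.12, -0.19 and -0.08, so that loess left it about the same on array 2. Tyr1y was the brightest probe on every wild-type array, with 48900.5, 31684.5 and 56247.5 scanner units above background in Atto and 19203, 25689.5 and 25398 in Cy3. Glu1y was the second brightest on each. Of the 10 lowest probes 7 were among the 20 brightest in Atto, and of the 10 highest 2 were. Tyr1y had 6 saturated spots on array 1, 6 on array 3 and none on array 2, and leaving saturated spots out changed none of the calls of the named probes. With loess, which takes out the trend over intensity, Tyr1y moved to -0.71 and Glu1y to -1.06, while 17 of the 20 probes called below the median and 8 of the 11 called above it were called in the same direction, and 8 of the 10 lowest probes stayed among the 10 lowest. The cause of the trend was not tested. Not all low probes were bright, since Ser1y had 580, 459.5 and 790.5 units and Val1y 935.5, 430.5 and 989.

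For dim probes the place in the order was hardly measured. The m probes had a median Atto signal of 245.3, 99.5 and 81.3 units on arrays 1, 2 and 3, and the others 1972, 751.5 and 1996. For mMet2y, mPhe1y, mArg1y and mThr1y under 50% of the spots were lit in Atto on all 3 arrays, and for mMet2y none was. mMet2y had a Cy3 signal of 68.5, 55.5 and 81.5 and an Atto signal of 11, 4 and 9. Its mean was 0.0046 with the offset of 50 added to both channels and 2.12 with plain subtraction, where it ranked first. mMet1y moved likewise, with a mean of 0.042 and of 1.77 with plain subtraction. No place in the order is claimed for these 5 probes.

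As a group, the m probes were not separated from the others beyond the spread of the arrays. The median of the 24 m probes minus that of the 40 others was 0.24, -0.12 and 0.54 on arrays 1, 2 and 3, a mean of 0.22 ± 0.33 (SD, n = 3, exact two-sided sign-flip test, p = 0.5, where 3 arrays cannot give less than 0.25). Of the m probes 6 were above the median and 3 below, and of the others 5 above and 17 below. With plain subtraction the difference was 0.67, 0.72 and 1.00, a mean of 0.80 ± 0.18 (SD, n = 3). In that setting the m probes lay above the others on all 3 arrays, beyond the spread of the arrays.

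Within amino acids, the m probes were above the others on all 3 arrays for 11 amino acids and below on all 3 for 1, glycine. These differences were not tested one by one. They were largest for tyrosine and glutamate, whose other probes were the lowest. For tyrosine the m probe exceeded Tyr1y by 2.64, 2.03 and 2.04, and for glutamate mGlu1y exceeded Glu1y by 2.14, 2.62 and 1.80. mTyr1y and mGlu1y were themselves near the middle, with means of 0.31 and 0.22. With loess they came to 0.19 and 0.09, against -0.71 for Tyr1y and -1.06 for Glu1y. Proline differed from these, as both mPro1y and the other proline probes were low, and when m probes were included proline became the lowest amino acid, with a mean of -1.08.

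**Figure D5:**
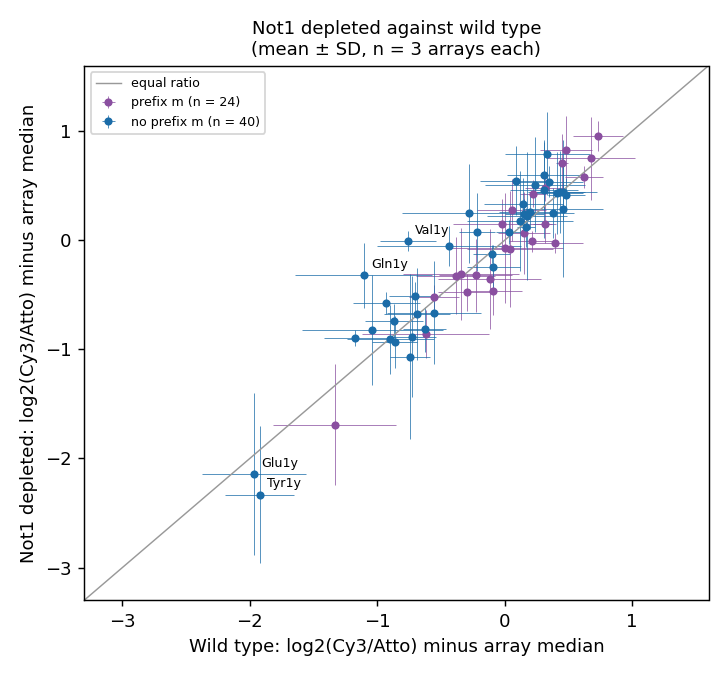
Mean ratio of each probe in Not1 depleted cells (vertical) against wild-type (horizontal), both as log2(Cy3/Atto) minus the array median. Bars are the SD over 3 arrays, and the line marks equal ratios. Glu1y and Tyr1y are the lowest in both strains, and Val1y and Gln1y lie furthest above the line.

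The order of the wild-type was set against that of Not1 depleted cells to see where it differed. No probe of 64 differed at a limma adjusted p of 0.05 (0%, smallest adjusted p 0.22), and without adjustment 2 were higher and none lower. The standard error of a difference was 0.24 at the median probe. The largest difference, 0.79, was that of Gln1y. The mean ratios correlated with a Spearman coefficient of 0.90. Of the 10 lowest wild-type probes 7 were also among the 10 lowest of Not1 depleted cells (70%), and of the 10 highest 5 were shared (50%). Tyrosine and glutamate were the last 2 amino acids and tryptophan, phenylalanine, glycine, methionine and leucine the first 5 in Not1 depleted cells too.

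The values of Not1 depleted and wild-type arrays did not overlap for 6 probes (9.38%). A share of this size also arises between 3 and 3 arrays that do not differ, and none of the 6 was called. They included Val1y and Gln1y. Val1y had -0.10, -0.01 and 0.09 on Not1 depleted arrays 1, 2 and 3, and -0.84, -0.51 and -0.92 on wild-type arrays 1, 2 and 3, a difference of 0.75 ± 0.21 (SE, limma adjusted p 0.22). Val1y minus Val2y was likewise -0.67, -0.39 and -0.57 in Not1 depleted cells and -0.98, -1.16 and -1.19 in wild-type cells. Gln1y had 0.0045, -0.59 and -0.38 on Not1 depleted arrays and -1.70, -0.65 and -0.97 on wild-type arrays, a difference of 0.79 ± 0.28 (SE, limma adjusted p 0.44). Both were nearer to the median in Not1 depleted cells on all arrays. With a variance trend over intensity, Val1y alone was called (limma adjusted p 0.037).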

How the data were processed

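The deposited tables hold spot intensity and local background for the Cy3 and Atto channels as the authors' image software gave them, and the percent of pixels above background. Other columns were not used. Normalization to spike-in standards, which the methods state, is not in them. Members and lists were chosen with earlier results of these data known. Names in rows 6 to 8 of each block were taken from the row above and row 5 was left out, which lowered the median spread of spots of one name in log2 Atto signal to 0.99, 0.47 and 0.28, against 1.43, 0.77 and 0.62 with names as deposited. Spots with under 50% of pixels above background plus 2 SD in both channels were left out. Background was corrected with normexp (offset 50), and log2 ratios were averaged per probe and centred on each array's median. limma 3.58.1 in R 4.3.3 was used with Benjamini-Hochberg adjustment, and was tested on simulated data. Probes were named by rule as the 10 highest and 10 lowest, the largest pair of each amino acid with a call, and the 4 highest and 4 lowest amino acids; others were named after their values were seen. Number of arrays limits the precision, p-values treat probes as independent, and abundance arrays were not used. Alternatives covered background, centring, spots, names, dim probes, loess, scale, each replicate left out and the replicate block. Python 3.11.15 was used for plots.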

Additional observations from a re-analysis of the deposited data

Results flagged for a closer look

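The spots of block row 5, which carry no usable name after the shift of names, were lit on 90.9% of positions on wild-type array 1, 87.9% on array 2 and 90.9% on array 3, while water spots were lit on 35.2%, 0% and 6.48%. They enter no probe of the order, and what is printed there was not tested.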

How the results depend on the processing

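The number of probes above the array median (11) became 18 with centring on the probes without prefix m, 0 with centring on the standards, and 17 on the linear scale or with the names as deposited. The number of amino acids above (4) became 0 with the standards, with the median over spots, with normexp at offset 0 and with plain subtraction, 1 with the mean foreground or without background correction, and 2 with prefix m included. Pairs past the threshold (6) became 11 with loess and 21 with prefix m included. The mean Spearman correlation of the wild-type arrays (0.75) became 0.81 with loess, 0.83 at offset 0 and 0.84 with plain subtraction, where Kendall's coefficient was 0.90. The m difference (0.22) became 0.72 at offset 0 and 0.80 with plain subtraction. The count of Not1 depleted minus wild-type calls (0) became 1 with an intensity trend and stayed 0 with the replicate block. Same-numbered arrays deviated with correlations of 0.087, -0.61 and -0.059, so the numbers were not taken as pairs.

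Leaving out each wild-type replicate in turn gave 4 to 5 probes above, 18 to 20 below, 0 to 2 amino acids above, 1 to 9 below (1 without replicate 2), 3 to 4 pairs, an m difference of 0.060 to 0.39 and a mean correlation of 0.69 to 0.80. Leaving out any array of either strain gave no Not1 call. With the names as deposited the sign turned for Met2h (-0.79), methionine (-0.80), Pro2y (0.27), Ser1y minus Ser2y (0.23) and Val1y minus Val2y (0.15). No other of the 32 values named by rule turned under any alternative. Values of other probes did turn, among them Arg2y (0.23 with loess) and Val1y (0.52 with the names as deposited). Of 630 comparisons of 32 named values with an alternative, 522 kept direction and side of the threshold and 103 lost the call. The cause of these changes was not tested. The alternative that uses only spots lit in both channels was chosen after seeing the data. Leaving out saturated spots or dim probes changed the call of none of the 32 named values, whereas without replicate 2 there were 16 that lost it.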
